A study of Mus musculus with 13 samples.

Results

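The matrix metalloproteinases (MMPs), the ADAMTS proteases with their ADAMTS-like relatives, and the tissue inhibitors of metalloproteinases (TIMPs) were examined as a gene group in the RNAseq data of C2C12 cells depleted of YBX3. The members were chosen by symbol, as the protein-coding mouse genes named Mmp, Adamts, Adamtsl or Timp with a number. These are 51 of the 55642 genes in the deposited table, comprising 23 MMP, 19 ADAMTS, 5 ADAMTS-like and 4 TIMP genes. C2C12 is an established mouse myoblast line that fuses into myotubes after a change of medium. Cells were reverse transfected with nontargeting siRNAs (control KD) or with siRNAs to YBX3 (YBX3 KD), using lipofectamine RNAiMAX. Proliferating myoblasts (0 day) were kept in DMEM with 10% fetal bovine serum, and differentiating myoblasts (1 day) were changed at 24 h to DMEM with 10% horse serum. All cells were harvested 48 h after transfection, so that the time points do not differ in the length of the knockdown. Proliferating myoblasts gave 8 libraries, 4 after control KD and 4 after YBX3 KD, lettered A to D in each group. Differentiating myoblasts gave 5, namely control KD replicates C and D and YBX3 KD replicates B, C and D. All groups come from this 1 cell line, and all were exposed to siRNA and transfection reagent.

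MMPs are zinc-dependent endopeptidases that cleave collagens, fibronectin, laminins and other proteins of the extracellular matrix. Most are secreted as inactive proenzymes, and the membrane-type MMPs stay at the cell surface. ADAMTS proteases carry a disintegrin-like domain and thrombospondin repeats and cut proteoglycans such as versican and aggrecan, process procollagens or act on microfibrils, whereas ADAMTS-like proteins share these repeats but have no catalytic domain. TIMPs bind the active site of metalloproteinases and block it, and TIMP2 also takes part in the activation of pro-MMP2 by MMP14. In skeletal muscle these proteins remodel the matrix around myofibers and satellite cells, and versican cleavage by ADAMTS proteases accompanies myoblast fusion.

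Total counts ranged from 33451547 to 71811371 among the 13 libraries. Abundance is given as CPM, in which counts are scaled to the TMM-adjusted total of each library, and as CPM per kb of the canonical transcript where genes are compared with each other. Ybx3 mRNA was at 265 to 347 CPM in control KD and 28.7 to 71.5 CPM in YBX3 KD, 14.5% of control on average. The myoblast markers Cdh15 and Myf5 averaged 138 and 52.8 CPM, Myod1 averaged 1.76 CPM, and Pax7 and Msc were under 1 CPM. Summed myocyte markers ran from 6.51 to 55.8 CPM in control KD and from 15.5 to 124 CPM in YBX3 KD. Of these, Myog, Myh3, Ckm and Mymx each averaged under 1 CPM. Summed fibroblast markers ran from 11275 to 16844 CPM in control KD and from 12398 to 21378 CPM in YBX3 KD. This sum was nearly all Col1a1 and Col1a2 (means of 4053 and 10752 CPM). Pdgfra averaged 48.8 CPM, and Thy1 and Dpt only 0.00136 and 0.0691 CPM. Of 6 macrophage markers, Adgre1 had no count in any library, Ptprc did not exceed 0.0424 CPM, Lyz2 and Csf1r averaged 0.909 and 0.858 CPM, and Cd68 and Cd14 averaged 1.96 and 9.76 CPM. Their sum was 11.3 to 15.6 CPM in control KD and 12.8 to 14.3 CPM in YBX3 KD. The part of these markers in the results was not tested. The 4 libraries of replicate D stood apart from replicates A, B and C in many members, as described further on, and results are therefore also given with replicate D set aside, an alternative chosen after seeing the data. Control KD at 1 day is then replicate C alone.

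Of the 51 members, 32 had enough counts for a test, among 16848 genes tested. Tested were 13 of 23 MMP, 12 of 19 ADAMTS, 4 of 5 ADAMTS-like and 3 of 4 TIMP genes. Mmp1a, Mmp1b, Mmp27, Adamts8 and Adamts19 had no count in any library, which allows at most 0.0926 CPM in the shallowest library (3 counts, counting error only). The other 14 untested members did not exceed 11 counts in a library. Mmp8, a collagenase, had 12 counts summed over all libraries. Mmp12, the macrophage elastase, had 11, Mmp7, matrilysin, had 3, and Timp4, a TIMP of heart and brain, had 20.

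The mRNA of this group was dominated by inhibitors and by the MMP14 and MMP2 pair. On the scale of CPM per kb, Timp2 held 30.1% and Timp1 25.4% of the sum over all members, Mmp14 18.04% and Mmp2 9.14%. Timp3, which binds to the matrix, held 4.09%. Together the first 4 genes made up 82.7% of the sum. By class, TIMP genes held 59.6%, MMP genes 31.3%, ADAMTS genes 5.07% and ADAMTS-like genes 4.01%. Mmp11 (stromelysin 3) came after Timp3 at a mean of 20.1 CPM per kb, followed by Adamtsl4 at 15.5, Adamtsl5 at 11.04, Mmp15 at 8.65 and Adamts6 at 8.06. With the union of exons as gene length in place of the canonical transcript, all 11 genes that rank highest were the same 11. The levels did depend on the length, and 6 of 28 moved by over 1 SD. Timp1 went from 234 to 112 and Mmp14 from 166 to 74.9 CPM per kb. The shares above and the ratio below use the canonical length only. The summed TIMP level was between 1.28 and 2.76 times the summed MMP level in each library, with a median of 2.08. This ratio was 1.88 ± 0.431 (SD, n = 6) in control KD and 2.07 ± 0.487 (SD, n = 7) in YBX3 KD, a difference smaller than the spread in either. That spread includes replicate D, in whose libraries the ratio was always lower than in any library of replicates A to C. The replicate letters were not used to pair libraries for this ratio.

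**Figure D1:**
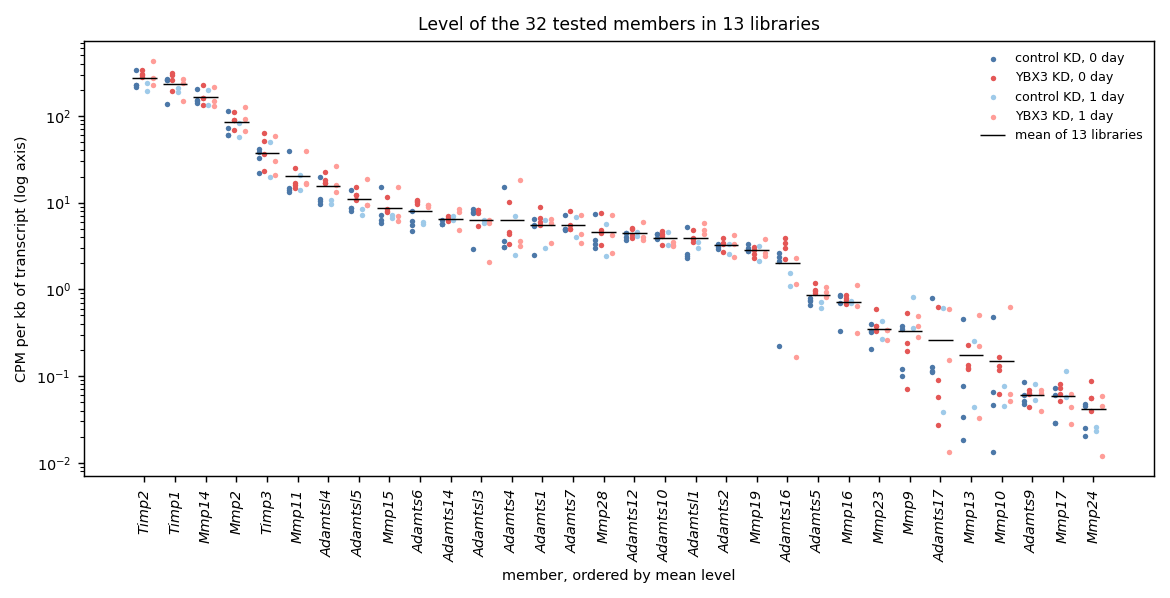
Level of each tested member in each of the 13 libraries, in CPM per kb on a log axis, with the mean as a line and the groups in colour. Timp2, Timp1, Mmp14 and Mmp2 lie above the other members, and Mmp13, Mmp10, Adamts9, Mmp17 and Mmp24 lie near the bottom.

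The genes at the bottom of this range include a physical cluster. In GRCm39, 10 of the 23 MMP genes lie on chromosome 9 between 7272514 and 7699587, a span of 427.1 kb that holds Mmp13, Mmp12, Mmp1b, Mmp3, Mmp1a, Mmp10, Mmp8, Mmp27, Mmp20 and Mmp7. These genes encode the collagenases, most stromelysins, the matrilysin and the macrophage elastase. Only Mmp13 and Mmp10 had enough counts for a test. All 10 genes together had 432 counts over 13 libraries, against 1661037 for all other members. Of the 13 MMP genes elsewhere in the genome, 11 were tested.

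Promoters of this cluster are known for a site of the AP-1 transcription factors (FOS and JUN), and the letters TGANTCA, which read the same on both strands, were therefore searched from 250 bases before to 50 bases after the start of each gene in RefSeq (GRCm38.p6). Promoter entries were matched for 36 members. The letters occurred in 8 of these 36 (22.2%), and in 2425 of 27025 genes (8.97%) overall. All 8 were cluster genes: Mmp10, Mmp12, Mmp13, Mmp1a, Mmp1b, Mmp20, Mmp3 and Mmp7. Of the tested members with an entry, 2 of 20 held the letters (10.0%), namely Mmp13 and Mmp10. Windows of 29 bases are shown for the members of the cluster that were tested and for Mmp3, stromelysin 1, with the matched letters in capitals. They lie at chr9:7272468-7272496, chr9:7502268-7502296 and chr9:7445765-7445793 on the plus strand of GRCm38.p6.
Mmp13: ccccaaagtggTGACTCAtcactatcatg
Mmp10: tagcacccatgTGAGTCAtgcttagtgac
Mmp3: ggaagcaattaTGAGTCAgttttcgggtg
The match begins 35 bases before the start of Mmp13, 63 before that of Mmp10 and 46 before that of Mmp3. Adamts6, Adamts5, Mmp2, Mmp9, Mmp16, Mmp17, Mmp19, Adamts4, Adamts7, Adamts8, Adamts10, Adamts15, Adamts16, Adamts19 and Adamtsl1 had no entry.

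After YBX3 KD, 2 proteases of the ADAMTS family rose and no member fell. These were Adamts6, a protease that acts on fibrillin microfibrils and on syndecan at the cell surface, and Adamts5, the main aggrecan- and versican-cleaving enzyme. Thus 2 of 32 tested members (6.25%) passed an adjusted p-value of 0.05 over both time points, both of them higher, where 1.29% of all tested genes were higher, 1.04% were lower and 2.34% passed in either direction. At an unadjusted p-value under 0.05 there were 6 members (15.6% of all tested genes), and 9 with the replicate letter as a block (28.4%). At the thresholds of the study (fold change over 1.3 in either direction, adjusted p below 0.001), 0 members passed with edgeR (0.113% of all tested genes). With DESeq2, the tool of the study, Adamts6 and Adamts5 passed these thresholds (1.12% of all tested genes), at log2 fold changes of 0.70 and 0.47 (adjusted p = 1.6e-08 and 0.000121, DESeq2). This run was not the study's own analysis, which adjusted its p-values by independent hypothesis weighting. In the run here, with DESeq2's own adjustment and low genes removed, 188 of 16848 genes passed, more than the study called. Fold changes were above 0 on the log2 scale in 25 of 32 members (78.1%), against 50.1% of all tested genes. The median log2 fold change was 0.20 over the members and 0.00080 over all tested genes. The gene group had been chosen with earlier results of these data known, so these shares are a description. In RNA from whole cultures, more cells of a kind and more RNA per cell cannot be told apart.

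Adamts6 (ENSMUSG00000046169) is encoded on the plus strand of chromosome 13 (104424343 to 104633203 in GRCm39). In proliferating myoblasts it was at 40.5, 37.0, 31.7 and 53.9 CPM in control KD replicates A to D, and at 68.7, 63.4, 72.1 and 68.0 CPM in YBX3 KD. In differentiating myoblasts it was at 40.1 and 37.5 CPM in control KD and at 59.4, 62.1 and 62.4 CPM in YBX3 KD. Each of the 7 YBX3 KD libraries exceeded each of the 6 control KD libraries, and the nearest control was replicate D at 0 day. The mean after YBX3 KD was 162% of control, a log2 fold change of 0.71 (SE, the standard error, 0.10, with an adjusted p = 0.00441 by the edgeR quasi-likelihood test, adjusted by Benjamini-Hochberg). Across 24 fits of this comparison, each library left out in turn included, the log2 fold change was between 0.65 and 0.81 and the adjusted p between 2.18e-09 and 0.0163. With replicate D set aside it was 0.81 (SE 0.09, adjusted p = 0.000693, same test).

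Adamts5 (ENSMUSG00000022894) lies on chromosome 16 from 85653061 to 85698716, on the minus strand and next to Adamts1. It was less abundant than Adamts6, at 0.853 against 8.06 CPM per kb. In proliferating myoblasts the levels were 7.09, 7.88, 8.13 and 8.58 CPM in control KD and 10.7, 10.3, 12.6 and 9.70 CPM in YBX3 KD. In differentiating myoblasts they were 7.70 and 6.51 CPM in control KD and 8.82, 11.5 and 10.1 CPM in YBX3 KD. Here too the groups did not overlap, although the lowest YBX3 KD library was only just above the highest control. The log2 fold change was 0.48 (SE 0.09) with an adjusted p = 0.0207 in the same edgeR test, 138% of control. The call did not hold in each library left out: the adjusted p of that test was 0.0504 to 0.0649 without control KD replicate A, B or C at 0 day, control KD replicate D at 1 day, or replicate A or C of YBX3 KD at 0 day. With replicate D set aside the log2 fold change was 0.49 (SE 0.11, adjusted p = 0.0150, same test). Groups without overlap, with YBX3 KD on the higher side, were found in 0.95% of all tested genes and in these 2 members.

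**Figure D2:**
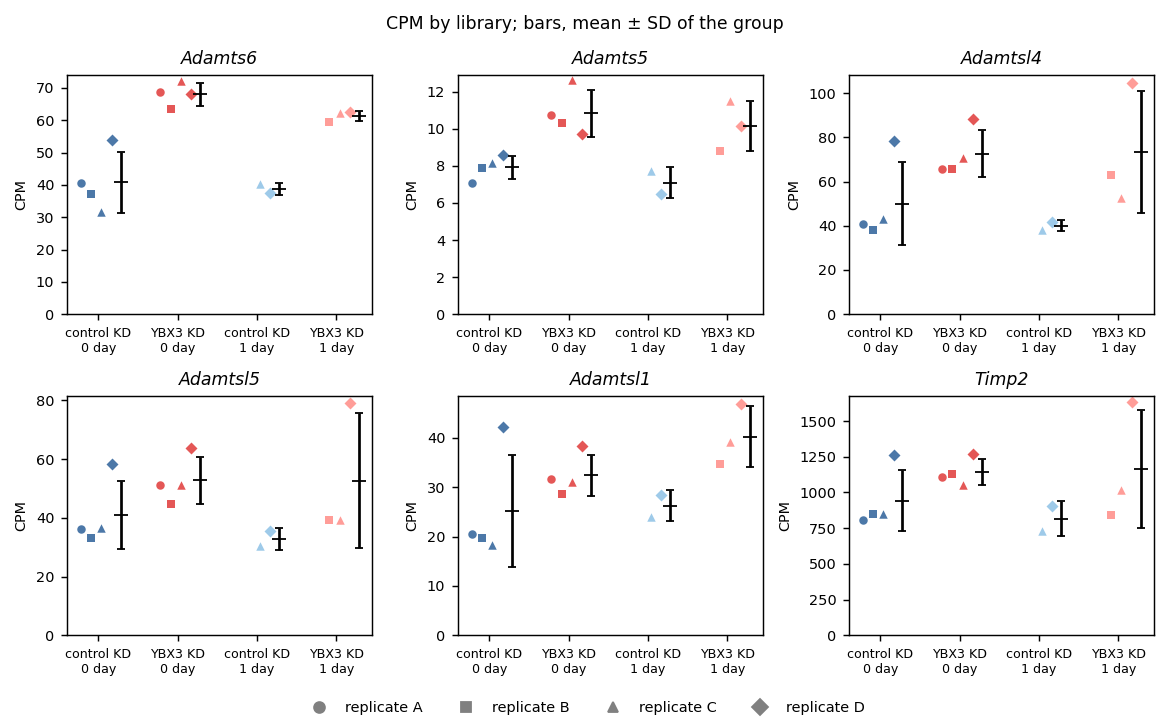
CPM of Adamts6, Adamts5, Adamtsl4, Adamtsl5, Adamtsl1 and Timp2 in each library, with the symbol giving the replicate letter and the bar the mean and SD of the group. YBX3 KD libraries of Adamts6 and Adamts5 sit above all control KD libraries, and in the other 4 genes control KD replicate D at 0 day (78.2 CPM in Adamtsl4) reaches into the YBX3 KD range.

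The replicate letters pair the libraries of different groups, and with the letter as a block 6 members were higher and 0 lower, 18.8% of the 32, where 5.4% of all tested genes were higher and 9.78% passed in either direction. Besides Adamts6 (adjusted p = 0.00369, edgeR with the letter as a block) and Adamts5 (adjusted p = 0.00645, edgeR with the block), these were 3 ADAMTS-like genes and Timp2. None of these 4 passed without the block in edgeR with all libraries. Without the block, DESeq2 called Adamtsl4 besides Adamts6 and Adamts5 (7% of all tested genes passed), and limma-voom called all 4 (18.3% of all tested genes). Adamtsl1 lies outside the rule for named genes and was added after its values were seen.

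Adamtsl4, an ADAMTS-like protein that binds fibrillin and is known from lens displacement, was at 40.9, 38.0, 43.0 and 78.2 CPM in control KD at 0 day and at 65.7, 65.8, 70.6 and 88.3 CPM in YBX3 KD. At 1 day it was at 38.3 and 41.7 CPM in control KD and at 63.0, 52.6 and 104.8 CPM in YBX3 KD. Apart from control KD replicate D at 0 day, all control libraries were below all YBX3 KD libraries, and YBX3 KD was higher in each of the 6 pairs of the same letter and day. The log2 fold change was 0.66 (SE 0.20, adjusted p = 0.114, edgeR's quasi-likelihood test) without and 0.71 (SE 0.12, adjusted p = 0.00920, same test) with the block.

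Adamtsl5, a microfibril-associated ADAMTS-like protein, was at 36.1, 33.2, 36.5 and 58.2 CPM in control KD at 0 day and at 51.2, 44.8, 51.2 and 63.8 CPM in YBX3 KD. At 1 day the levels were 30.3 and 35.5 CPM against 39.3, 39.3 and 79.1 CPM. YBX3 KD was again the higher of each of the 6 pairs, and only control KD replicate D at 0 day overlapped with YBX3 KD. The log2 fold change was 0.48 (SE 0.19, adjusted p = 0.236, edgeR's quasi-likelihood test), and with the block 0.52 (SE 0.11, adjusted p = 0.0174, same test).

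Adamtsl1, also called punctin, was at 20.4, 19.7, 18.3 and 42.3 CPM in control KD at 0 day and at 31.6, 28.6, 31.0 and 38.4 CPM in YBX3 KD. At 1 day it was at 24.0 and 28.5 CPM and at 34.7, 39.1 and 46.9 CPM. In replicate D at 0 day the order was turned, with control KD above YBX3 KD. The log2 fold change was 0.46 (SE 0.19, adjusted p = 0.251, edgeR's quasi-likelihood test) without and 0.54 (SE 0.13, adjusted p = 0.0297, same test) with the block. The fourth tested gene of this class, Adamtsl3, also named after its values were seen, had a log2 fold change of -0.05 (SE 0.28).

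Timp2, the most abundant member, was at 805, 849, 851 and 1260 CPM in control KD at 0 day and at 1109, 1131, 1053 and 1271 CPM in YBX3 KD. At 1 day it was at 729 and 904 CPM in control KD and at 840.5, 1020 and 1631 CPM in YBX3 KD. YBX3 KD was higher in each of the 6 pairs, by little in replicate D at 0 day, and the groups overlapped. The log2 fold change was 0.36 (SE 0.16, adjusted p = 0.278, edgeR's quasi-likelihood test), and with the block 0.40 (SE 0.10, adjusted p = 0.0306, same test). YBX3 KD was higher in all 6 pairs in 6 members (18.8%), namely Adamts6, Adamts5, Adamtsl4, Adamtsl5 and Timp2 as well as Adamts7, against 9.35% of all tested genes.

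The other inhibitors overlapped between the groups. Timp1, which inhibits most secreted MMPs, ranged from 127 to 248 CPM (median 219) in control KD and from 139 to 293 CPM (median 245) in YBX3 KD. Timp3 ranged from 92.7 to 235 CPM (median 168) and from 97.5 to 303 CPM (median 171). Their log2 fold changes were 0.18 (SE 0.18) and 0.26 (SE 0.31). Summed over the TIMP genes as CPM per kb, however, the 6 control KD libraries lay between 450.4 and 533 and the 7 YBX3 KD libraries between 543 and 665, without overlap. The sums of MMP genes overlapped, at 217 to 387 in control KD and 228 to 407 in YBX3 KD. These sums use the canonical transcript length, and the separation of the TIMP sums was not examined with the union of exons. With the union, the mean of Timp1 was 112 in place of 234 CPM per kb. Sums were not tested, since the members had been chosen with results known, and no share for sums of other gene sets was computed.

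Among MMP genes, 0 of 13 tested members passed in edgeR with all libraries, with or without the block. Mmp2 was called by limma-voom and by DESeq2 with the block (17.6% of all tested genes passed), and Mmp2 and Mmp11 by edgeR with replicate D set aside. The gelatinase Mmp2 ranged from 178 to 353 CPM (median 205) in control KD and from 209 to 392 CPM (median 275) in YBX3 KD, a log2 fold change of 0.31 (SE 0.19). Its membrane-bound activator Mmp14 had medians of 420.4 CPM (control KD) and 443.5 CPM (YBX3 KD), and its log2 fold change was 0.04 (SE 0.16). The inducible gelatinase Mmp9 was low, with medians of 1.12 CPM (control KD) and 0.900 CPM (YBX3 KD) and a log2 fold change of -0.16 (SE 0.46). Mmp11 had a log2 fold change of 0.08 (SE 0.31), the membrane-type Mmp15 0.20 (SE 0.27), Mmp28 (epilysin) 0.22 (SE 0.30) and Mmp19 -0.02 (SE 0.14). Mmp13 and Mmp10 rested on 248 and 140 counts over all libraries, with log2 fold changes of 0.38 (SE 0.75) and 0.50 (SE 0.86).

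The remaining ADAMTS proteases did not pass in edgeR with all libraries, with or without the block. Adamts14 was called by limma-voom, and Adamts14 and Adamts4 by edgeR with replicate D set aside. DESeq2 with the block called Adamts1 at 0 day (8% of all tested genes passed) and Adamts4 at 1 day (14% of all tested genes). Adamts4, an aggrecanase like Adamts5, had medians of 14.6 CPM (control KD) and 19.3 CPM (YBX3 KD), and Adamts1, which also cleaves versican, ranged from 12.4 to 32.7 CPM and from 17.1 to 44.3 CPM. Their log2 fold changes were 0.21 (SE 0.57) and 0.33 (SE 0.24). The procollagen N-proteinases Adamts14 and Adamts2 had log2 fold changes of 0.14 (SE 0.11) and 0.12 (SE 0.13). Adamts7, a protease of cartilage oligomeric matrix protein, was at 101% of control with a log2 fold change of 0.02 (SE 0.20). Adamts16 and Adamts17, proteases of less known substrates, varied widely between libraries, with log2 fold changes of 0.43 (SE 0.54) and -0.47 (SE 0.93).

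**Figure D3:**
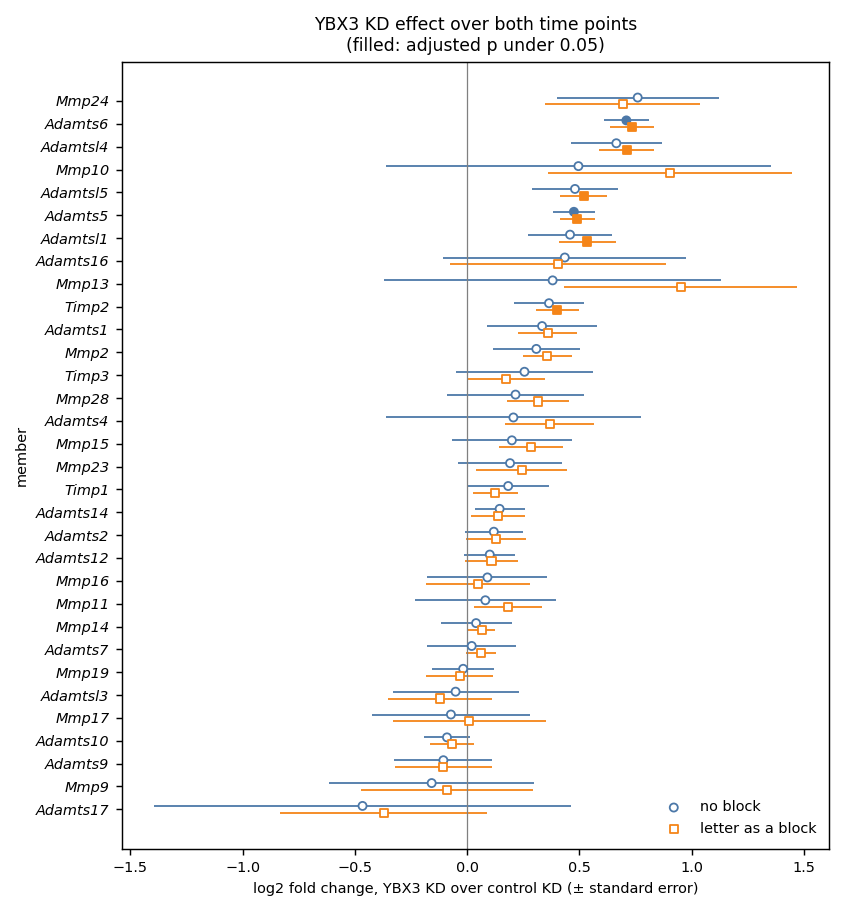
Log2 fold change of YBX3 KD over control KD with its SE for the 32 tested members, without (circles) and with (squares) the replicate letter as a block, filled where the adjusted p was under 0.05. Of the circles 2 are filled, Adamts6 and Adamts5, and of the squares 6, all to the right of 0.

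Proliferating and differentiating myoblasts were then compared with their own controls. At 0 day, Adamts6 alone was higher, with a log2 fold change of 0.74 (SE 0.13, adjusted p = 0.0416, edgeR's quasi-likelihood test), where 0.208% of all tested genes were higher and 0.427% passed in either direction. This call was lost, with an adjusted p of up to 0.152, when any library other than control KD replicate D at 0 day or YBX3 KD replicate D at 1 day was left out. With the block 2 members, Adamts6 and Adamts5, were higher at 0 day (1.37% of all tested genes were higher, and 2.37% passed in either direction). At 1 day, with 2 controls, 0 members passed with edgeR (0.0712% of all tested genes, 0.00594% higher and 0.0653% lower). With the block the count was also 0 (0.0712% of all tested genes, 0.0119% higher). At an unadjusted p-value under 0.05 there were 3 members (7.79% of all tested genes), or 10 with the block (27.1%, and 7 members against 20.7% at 0 day), and DESeq2 without the block called 1, Adamts6 (0.855% of all tested genes), and 8 with it (14%). The log2 fold change of Adamts6 at 1 day was 0.66 (SE 0.17, adjusted p = 0.423, edgeR), and that of Adamts5 was 0.45 (SE 0.12) at 0 day and 0.51 (SE 0.16) at 1 day. The difference between the time points was tested directly as an interaction: 0 members passed with edgeR (0% of all tested genes) or with DESeq2, and 1 had an unadjusted p-value under 0.05 (2.64% of all tested genes). With the block there were 0 and 2 (11% of all tested genes). Without the block that 1 was Mmp17, a membrane-type MMP named after its values were seen, at 0.179 to 0.737 CPM, whose log2 fold change at 1 day minus that at 0 day was -1.41 (SE 0.63, adjusted p = 1.00, edgeR).

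The step from 0 day to 1 day showed no change in a member that passed the test with all libraries. In edgeR, 0 members passed over both siRNAs, in control KD alone or in YBX3 KD alone (0% of all tested genes each time), and 0 had an unadjusted p-value under 0.05 in any of the 3 comparisons (2.83%, 1.44% and 4.28% of all tested genes). DESeq2 also gave 0 in each. With the letter as a block 0 members passed again (0% of all tested genes each time). Unadjusted p-values under 0.05 in the blocked fit were then those of 1 member over both siRNAs, 4 in control KD and 3 in YBX3 KD (4.74%, 6.81% and 7.43% of all tested genes). The 1 member was Adamts7, at a log2 fold change of -0.28 from 0 day to 1 day (SE 0.07, adjusted p = 1.00, edgeR with the block). The 4 were Adamtsl5, Adamtsl4, Adamts4 and Timp2, and the 3 were Adamts7, Adamts16 and Adamtsl3, all with a log2 fold change under 0 and listed here for their p-values. Without the block the smallest unadjusted p-value over both siRNAs was that of Mmp9, with a log2 fold change of 0.90 (SE 0.46) from 0 day to 1 day. It ranged from 0.319 to 1.20 CPM in the 4 control KD libraries at 0 day and was at 1.13 and 2.61 CPM at 1 day. After YBX3 KD it ranged from 0.223 to 1.71 CPM at 0 day and from 0.900 to 1.56 CPM at 1 day, with overlap. The median log2 fold change over the members was -0.07. Without replicate D, 1 day keeps only control KD replicate C and YBX3 KD replicates B and C, which limits the call that follows. With replicate D set aside 1 member, Adamtsl3, was lower at 1 day (0.932% of all tested genes passed).

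The libraries of replicate D were set against the other libraries of their groups. Adamts4 and Adamts17 were at least 2-fold above the mean of the other libraries of their group in replicate D in all 4 groups, which is 6.25% of the tested members against 0.415% of all tested genes. For Adamts4 the log2 ratio was 1.29 to 2.41. It was at 67.0 CPM in replicate D of control KD at 0 day against 13.5 to 15.6 CPM in A to C, and at 80.4 CPM in replicate D of YBX3 KD at 1 day against 13.7 and 15.7 CPM in B and C. For Adamts17 the log2 ratio was 2.07 to 2.60. Replicate D was above its group in all 4 groups in 15 members (46.9%, against 29.1% of all tested genes), among them Mmp11, Mmp14, Mmp2, Mmp28, Timp2, Adamtsl4 and Adamtsl5. It was below in all 4 groups in 4 members (12.5%, against 28.9%), namely Timp1, Timp3, Adamts1 and Adamts16. Thus Timp2 and Timp1, the leading inhibitors, stood on opposite sides in replicate D. Summed MMP level was between 320 and 407 CPM per kb in its 4 libraries and between 217 and 286 in the other 9. Of the cell type markers, the fibroblast sum, nearly all Col1a1 and Col1a2, was 15273 to 21378 CPM in replicate D. It was 11275 to 17105 CPM in the other 9 libraries, and the myocyte sum was 6.51 to 22.3 CPM in replicate D against 15.5 to 124 CPM. The myoblast sum was 201 to 234 against 208 to 268 CPM, and the macrophage sum 11.3 to 13.3 against 12.8 to 15.6 CPM. Their part in these differences was not tested.

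**Figure D4:**
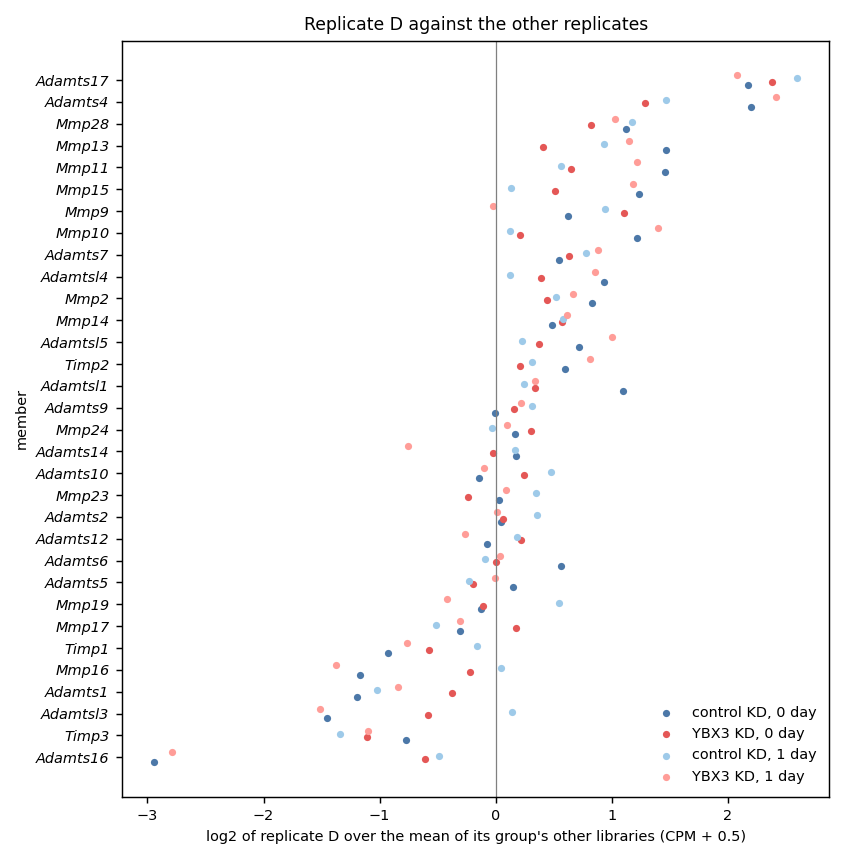
Log2 ratio of replicate D to the mean of the other libraries of its group, for each tested member in each of the 4 groups (CPM with 0.5 added). Adamts17 and Adamts4 lie above 1 in all 4 groups, and Adamts16, Timp3, Adamts1 and Timp1 lie below 0 in all 4.

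With the 4 libraries of replicate D set aside, 10 of 32 members passed over both time points (31.2%), all higher, where 12.5% of all tested genes passed in either direction. They were the 6 that passed with the block together with Mmp2, Mmp11, Adamts4 and Adamts14. The log2 fold changes were 0.69 in Adamtsl4 (adjusted p = 0.000587, edgeR), 0.63 in Adamtsl1 (adjusted p = 0.000372, edgeR) and 0.38 in Timp2 (adjusted p = 0.00471, edgeR). In Mmp2 the log2 fold change was 0.39 (adjusted p = 0.0435, edgeR). The count rose from 2 to 4 when only control KD replicate D at 0 day was left out, with Adamtsl4 and Adamtsl1 added, where the share of all tested genes was 5.11%.

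Genes that act around these proteases were counted in lists of activators, inhibitors and clearance receptors, glycosylation enzymes, other metalloproteinases, inducers and substrates. Of the 72 genes, 49 were tested, 5 were higher and 0 lower after YBX3 KD over both time points (1.29% of all tested genes were higher), and with the block 12 were higher (5.4% of all tested genes). None of the 5 tested activators or 6 tested inhibitors passed in edgeR, with or without the block. The 3 with the smallest p-values were Thbs1, Nid1 and Adam8. Thbs1 encodes thrombospondin 1, a matrix protein, and ranged from 2176 to 2734 CPM in control KD and from 2746 to 4805 CPM in YBX3 KD. The basement membrane protein gene Nid1 ranged from 637 to 844 and from 870 to 1462 CPM, and Adam8, a membrane-anchored metalloproteinase, from 37.2 to 48.9 and from 54.6 to 102 CPM. The groups did not overlap in these 3 and in Adam9, a membrane-anchored metalloproteinase like Adam8, with YBX3 KD on the higher side, 4 of the 49 tested genes (8.16%), against 0.95% of all tested genes. The log2 fold changes of Thbs1, Nid1 and Adam8 were 0.67, 0.70 and 0.74 (adjusted p = 0.00804, 0.00804 and 0.0150, edgeR's quasi-likelihood test). The 49 tested genes had a median log2 fold change of 0.22. The lists had been chosen with earlier results of these data known, so these shares are a description and not independent evidence.

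An siRNA can also act on other messages through its seed, bases 2 to 8 of the antisense strand, and the study lists 4 siRNAs to mouse YBX3 without stating in the sources used here which were in the RNAseq samples. Matches to the seeds were searched in the 3′ untranslated regions of the tested members. The antisense strands of the siRNAs are given as listed, with the seed in capitals.
siRNA 05: uAUAGUUGuagggacgucg
siRNA 06: aUAGUAGCcgcgucuguac
siRNA 07: uCCAUAUCcauuucugacg
siRNA 08: aUACUUGCguggguuguuu
The listed antisense strand of siRNA 07 is not the complement of its listed sense strand. Among the 32 tested members, a match to the seed of siRNA 08 was found in Adamts5 and Adamts2 (6.25%, against 6.84% of 12933 tested genes) and one to siRNA 07 in Adamts6 (3.12%, against 5.96%). Mmp16 held matches to siRNA 05 (3.12%, against 6.72%), and no member held one to siRNA 06 (0%, against 4.90%). The sites are shown with the letters that pair with the seed in capitals.
Adamts6, siRNA 07: ccttctttGATATGGtagaaggg
Adamts5, siRNA 08: taaatattGCAAGTAgctaaatc
Adamts2, siRNA 08: tccacatgGCAAGTAggccaaag
Adamts6 and Adamts5 were higher after YBX3 KD, as given, and Adamts2 was at 108% of control. Adamtsl4, Adamtsl5, Adamtsl1 and Timp2, which passed with the block, held no match. An action of the siRNAs on the members was not tested. A match of letters is a description and does not show a site of action.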

How the data were processed

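RNAseq was measured in 13 C2C12 libraries. The authors quantified reads with Salmon against Gencode M30 (GRCm39). The deposited values are estimated counts per gene, not normalized. The Salmon version is not given in the sources used here. All values in the table were whole numbers, and the step that summed them by gene is not stated. Symbols, positions and lengths came from GENCODE vM39, joined by Ensembl identifier (54969 of 55642 matched). Promoters came from RefSeq (GRCm38.p6), 3′ untranslated regions from GENCODE vM39 transcripts and siRNA strands from the study's supplement.

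Tests were run with edgeR 4.0.16, limma 3.58.1 and DESeq2 1.42.0 under R 4.3.3, and sequences were read in Python 3.11.15 with pandas 2.3.3. Figures were drawn with matplotlib 3.10.9. Low genes were removed with filterByExpr (4 groups), and libraries were scaled by TMM. The fit over both time points held the siRNA and the day. A second fit, with 1 coefficient per group over all 13 libraries, gave the contrasts within a time point, their difference and the steps between days. Tests were edgeR's quasi-likelihood tests with Benjamini-Hochberg adjustment over all genes tested, called at 0.05. The standard error is the absolute log2 fold change divided by the root of the F statistic. The method was also run on simulated counts with 200 changed genes, and the outcome is not reported here. No 2 libraries of a group were alike within sampling noise (chi-square divided by its degrees of freedom, 18 to 259). P-values measure the spread between libraries that the labels call biological replicates.

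The letter and the title number of a library disagree at 1 day. After removal of group means, residuals of log2 CPM correlated above 0.1 in all 16 same-letter pairs (0.117 to 0.730, median 0.338), and in 8 of 16 pairs that share a title number (median 0.0931). Of the pairs with different letters, 11 of 46 were above 0.1 (median -0.146, highest 0.419). Same-letter pairs of replicate D were at 0.409 to 0.730 and those of A to C at 0.117 to 0.358. The pairs share libraries and are not independent. The letters were thus taken to pair the libraries.

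Members with an adjusted p under 0.05 in any comparison, the 2 most abundant members of each role and all TIMP genes are named, and of the other pathway genes the 3 of smallest p-value per direction. The members and lists were chosen with earlier results of these data known. Alternatives were DESeq2, limma-voom weighted by sample quality, scaling by relative log expression, other filters, no day term, blocks by letter or title number, the thresholds of the study, only the libraries compared, and each library left out. DESeq2 with the block, DESeq2 at the thresholds of the study and replicate D set aside were added after seeing the data. Protein sequences were not used here.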

Additional observations from a re-analysis of the deposited data

Results flagged for a closer look

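In groups of 4 libraries (0 day), a member was noted where its highest or lowest library lay further from the others than Dixon's critical value allows, which chance gives in about 1 of 20 groups. This held in 17 of 64 groups examined, and in each of them the library was replicate D (15 high, 2 low). These groups are different members in the same libraries and are thus not independent, so the rate given by chance is no yardstick for their count. The share of all tested genes under this rule was not computed. The count therefore describes replicate D and does not set the members apart from other genes. In control KD, replicate D was high in Mmp11 (88.9 CPM, others 30.5 to 33.5), Adamts4 (67.0 CPM, others 13.5 to 15.6), Adamts17 (5.28 CPM, others 0.744 to 0.843) and Adamts7 (39.4 CPM, others 26.6 to 27.2). It was also high in Mmp15 (78.5 CPM), Mmp28 (34.1 CPM), Adamtsl4 (78.2 CPM), Adamtsl5 (58.2 CPM), Adamtsl1 (42.3 CPM) and Timp2 (1260 CPM), and in the low genes Mmp10 (0.833 CPM) and Mmp13 (1.20 CPM). It was low in Timp1 (127 CPM, others 240 to 248) and Adamtsl3 (21.8 CPM, others 57.6 to 64.0). In YBX3 KD, replicate D was high in Mmp15 (59.3 CPM), Mmp13 (0.611 CPM) and Adamts17 (4.09 CPM).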

How the results depend on the processing

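All calls among the members over both time points and within a day were higher after YBX3 KD in all settings tried. Shares of all tested genes passing stand in parentheses. Over both time points the count of 2 (2.34%) became 6 with the replicate block (letter) (9.78%), 3 with the title-number block (2.16%), 3 with DESeq2 (7%), 7 with DESeq2 and the block (17.6%), 8 with limma-voom (18.3%), 1 without a filter on low counts (0.594%), 0 with edgeR at the study's thresholds (0.113%) and 10 with replicate D set aside (12.5%). It stayed 2 with DESeq2 at those thresholds (1.12%), a setting added after seeing the data, and was 1 to 4 with a library left out (1 without control KD A, B or C at 0 day, control KD D at 1 day, or YBX3 KD A or C at 0 day, at 1.03% to 1.23%, and 4 without control KD D at 0 day, at 5.11%). At 0 day the count of 1 (0.427%) became 2 with DESeq2 (3.09%), 6 with limma-voom (10.6%), 2 with the letter (2.37%) and 0 with the title number as a block (0.255%), 5 with DESeq2 and the block (8%), 0 with edgeR at the study's thresholds (0.0297%), 0 with only the libraries compared (0.392%) and 5 with replicate D set aside (5.49%), and was 0 to 2 with a library left out. At 1 day the count of 0 (0.0712%) became 1 with DESeq2 (0.855%) and 8 with DESeq2 and the block (14%), and for the step between days over both siRNAs 1 with replicate D set aside (0.932%). The paired analysis changed no other count. Signs turned in Mmp9 (log2 fold change 0.18 with limma-voom), Mmp19 (0.10 with limma-voom, 0.0086 with the title-number block, 0.085 with replicate D set aside) and Adamts7 (-0.013 with the title-number block). With a library left out, log2 fold changes spanned -0.058 to 0.13 in Mmp14, -0.095 to 0.16 in Adamts7, -0.12 to 0.030 in Mmp19, -1.47 to 0.25 in Adamts17, -0.12 to 0.42 in Mmp11, -0.26 to 0.80 in Adamts4, -0.54 to 0.13 in Mmp9 and -0.22 to 1.69 in Mmp10. The causes were not tested. Low counts limit Mmp13, Mmp10, Mmp17 and Mmp24, and 2 controls limit 1 day. With replicate D set aside, control KD at 1 day is replicate C alone.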
